A study of Homo sapiens with 6 samples.

Results

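Genes for 40 proteins of ribosome production, which starts in the nucleolus, are described here, as measured in the human colorectal cancer line HCT116. They were chosen by name, but with earlier results of these data known. Their products are core proteins of small nucleolar ribonucleoproteins (snoRNPs), nucleolar chaperones, factors of small-subunit and large-subunit assembly, and the transcription machinery of RNA polymerase I. All 40 symbols were found among the 26255 symbols of the deposited expression files, and all 40 passed the filter for testing, a mean of at least 1 FPKM (a read number scaled to transcript length and library size), as 12203 genes did. RNA was sequenced from parent cells, which were not described as transfected, and from cells given siLINC01534-1 or siLINC01534-2, small interfering RNAs (siRNAs) designed against the long noncoding RNA LINC01534. Each of the 3 groups had 2 libraries of poly(A) RNA. Libraries of a negative control siRNA were not analysed here, so transfection and loss of LINC01534 cannot be told apart in a comparison with parent.

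Ribosome production starts when RNA polymerase I copies the ribosomal DNA into a long precursor RNA. Box C/D snoRNPs methylate this RNA and box H/ACA snoRNPs convert uridines into pseudouridines, while a large assembly called the small-subunit processome folds and cuts it. The precursors of both subunits then mature separately and leave for the cytoplasm, and in growing cancer cells the genes for this work are strongly expressed, in part through the transcription factor MYC.

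LINC01534 itself was listed at 0.285 and 0.571 FPKM in the parent libraries, at 0 and 0.283 with siLINC01534-1, and at 0.660 and 0.551 with siLINC01534-2. After scaling for depth, these values were 1, 2, 0, 1, 2 and 2 times their smallest step, so each may rest on only 1 or 2 reads. A fall of LINC01534 was not seen in the libraries labelled siLINC01534-2, but this depth cannot check the labels, and the names of both siRNAs below stand for library labels. The depth, estimated from the steps between low FPKM values, was between 8690000 and 10400000 reads per library. The 5 epithelial marker genes EPCAM, CDH1, KRT8, KRT18 and KRT19 had between 23.5 and 1730.5 FPKM in every library. The leukocyte gene PTPRC and the endothelial gene PECAM1 had at most 0.0463 FPKM, and the collagen gene COL1A1 had between 3.02 and 5.79 FPKM. Against parent, KRT8, KRT18 and KRT19 were lower with siLINC01534-1 (log2 differences -0.34, -0.21 and -0.18) and COL1A1 was higher (0.68), while CDH1 (0.57) and KRT19 (0.21) were higher with siLINC01534-2. The part of these markers in the results below was not tested.

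The start sites of many of these genes share a sequence feature. The genes were not chosen by it, but they belong to a class expressed in part through MYC. As the motif sought is one that MYC binds, its share is not independent of the choice of genes. The E-box CACGTG, a palindrome that reads the same on both strands and is a known binding sequence of MYC and related factors, was sought in the RefSeq promoter windows (GRCh38.p14), which run from 250 bases before to 50 bases from each transcript start. Windows were given for 34 of the 40 genes, and 18 of these (52.9%) held an E-box, against 12.9% of 9009 tested genes with a window and 8.77% of all 27305 genes with one. In 17 of the 34 genes (50%) an E-box started within 40 bases of the transcript start, against 4.32% of the tested genes. The following stretches of 60 bases run from 35 bases before to 25 bases from the start, and for TSR3 from 80 to 21 bases before it. Stretches of GNL2, PNO1, DDX21 and UTP20, which passed with neither siRNA against parent, are not printed. The printed genes are therefore mostly ones called lower. For GAR1, BYSL, LTV1 and NOP2 the E-box falls outside such a stretch. The E-box is in capitals.
FBL (chr19:39846355-39846414, minus strand): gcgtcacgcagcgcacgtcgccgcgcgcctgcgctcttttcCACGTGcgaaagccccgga
NOP10 (chr15:34343112-34343171, minus strand): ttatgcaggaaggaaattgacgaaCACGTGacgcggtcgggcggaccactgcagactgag
WDR43 (chr2:28894632-28894691, plus strand): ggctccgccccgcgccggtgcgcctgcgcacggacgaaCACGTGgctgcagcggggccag
NOP14 (chr4:2963382-2963441, minus strand): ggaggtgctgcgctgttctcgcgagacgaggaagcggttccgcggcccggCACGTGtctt
UTP18 (chr17:51260511-51260570, plus strand): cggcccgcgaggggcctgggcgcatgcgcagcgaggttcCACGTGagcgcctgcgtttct
RRP9 (chr3:51941880-51941939, minus strand): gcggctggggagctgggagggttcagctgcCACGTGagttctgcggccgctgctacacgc
TSR2 (chrX:54440369-54440428, plus strand): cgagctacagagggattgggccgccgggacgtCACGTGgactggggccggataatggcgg
GNL3 (chr3:52685997-52686056, plus strand): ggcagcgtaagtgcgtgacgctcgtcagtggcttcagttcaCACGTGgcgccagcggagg
PES1 (chr22:30591886-30591945, minus strand): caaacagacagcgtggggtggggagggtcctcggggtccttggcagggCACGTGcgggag
TSR3 (chr16:1351899-1351958, minus strand): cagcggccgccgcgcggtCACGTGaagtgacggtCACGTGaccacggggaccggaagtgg

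**Figure D1:**
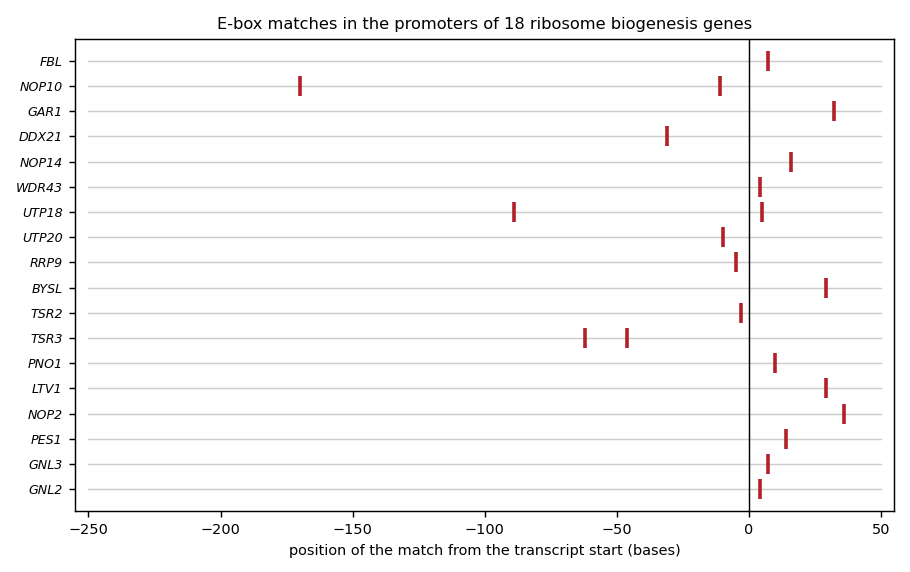
Position of each E-box (red tick) in the promoter windows of the 18 genes that hold one, in bases from the transcript start (vertical line); each grey line is a window of 300 bases. Of the 21 matches, from position -170 to position 36, all but 4 lie within 40 bases of the start, and the exceptions are both matches of TSR3 and the outer matches of NOP10 and UTP18.

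WDR43 and GNL2 carried the E-box at position 4, FBL and GNL3 at position 7, and RRP9 and TSR2 just before the start, at positions -5 and -3. TSR3 held 2 E-boxes, at positions -62 and -46. None of the 21 matches shared a base with a match to the other motifs searched on both strands. Of those, CCGGAAG, the core of ETS family sites, was found in 41.2% of the 34 genes and 23.3% of the tested genes. CTCGCGA was found in 20.6% and 5.72%, GCATGCG, a core of NRF1 sites, in 8.82% and 7.88%, and the TATA box TATAAA in 5.88% and 7.57%. These matches describe letters in a window and do not show that a factor binds there.

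The levels in parent cells spanned a wide range. NPM1, which encodes the nucleolar chaperone nucleophosmin, was highest, at 1946 and 1977 FPKM. NCL, which encodes the RNA-binding protein nucleolin, followed at 980 and 979 FPKM, and UTP20 and UTP15, both of the small-subunit processome, were lowest, at 13.1 and 12.1 FPKM and at 13.6 and 14.3 FPKM. Even UTP20 lay above 51.3% of the genes tested. FPKM are per transcript length, so these levels can be set side by side, but only roughly. The length scaling of short transcripts such as NOP10 (507 bases) and reads shared with pseudogenes were not checked. The 4 core proteins of box H/ACA snoRNPs form a complex together. The RNA levels of their genes in parent were unequal, at 303 ± 0.205 FPKM (SD, n = 2) for NOP10, 225 ± 1.55 for NHP2, 114 ± 2.37 for DKC1 and 56.9 ± 1.86 for GAR1. Protein levels were not measured here. Between neighbours in the order of parent levels, the ranges of the 2 parent libraries overlapped in a block of middle genes. It ran from UTP18 (72.8 FPKM) through POLR1C, TCOF1, TSR1, GNL2, NOP14 and TSR3 to GAR1. Compared library by library, adjoining genes of this run kept their order in both, except between GNL2 and its neighbours TSR1 and NOP14. Differences between adjoining genes were not tested. The ranges also overlapped for NOB1 and NOP16, for TSR2, UBTF and PNO1, and for UTP3 and WDR12.

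Against parent, the genes moved mostly downward and by small steps. With siLINC01534-1, 20 of the 40 were lower, 0 were higher and 20 did not pass the test (limma on log2(FPKM + 1), Benjamini-Hochberg adjusted p under 0.05 over all 12203 genes). Among all genes tested, 24.5% were lower and 21.8% higher. With siLINC01534-2, 13 of the 40 were lower and 2 were higher, where 11.8% of all genes were lower and 11.1% higher. The median log2 difference of the 40 genes was -0.13 with siLINC01534-1 and -0.09 with siLINC01534-2, while that of all genes was 0.00031 and 0.0018. The library values, which are the ones the test used and so are not separate support, showed the same side. Both siLINC01534-1 libraries lay below both parent libraries for 31 genes (77.5%, against 38.3% of all genes) and above them for 2 genes (5%, against 37.5%). For siLINC01534-2 these numbers were 24 genes (60%, against 32.7%) and 5 genes (12.5%, against 32.1%). The parent libraries are shared by both comparisons, and 32 of the 40 genes were higher in the second parent library than in the first. A change beyond 2-fold was rare, with TSR3 under siLINC01534-2 as the single case among the 40, where 1.02% of all genes were under 0.5 of the parent level and 1.29% over 2 times that level. With siLINC01534-1 these shares were 3.2% and 2.26% of all genes, and 0 of the 40 were among them. The calls were sensitive to single libraries, since 11 to 17 genes passed with siLINC01534-1 and 5 to 11 with siLINC01534-2 when any 1 of the 6 libraries was left out. For calls that were lost with other settings, the libraries they rested on, the number of 12 alternative fits that kept them, or both are given below. Of these fits, 6 leave out a library.

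**Figure D2:**
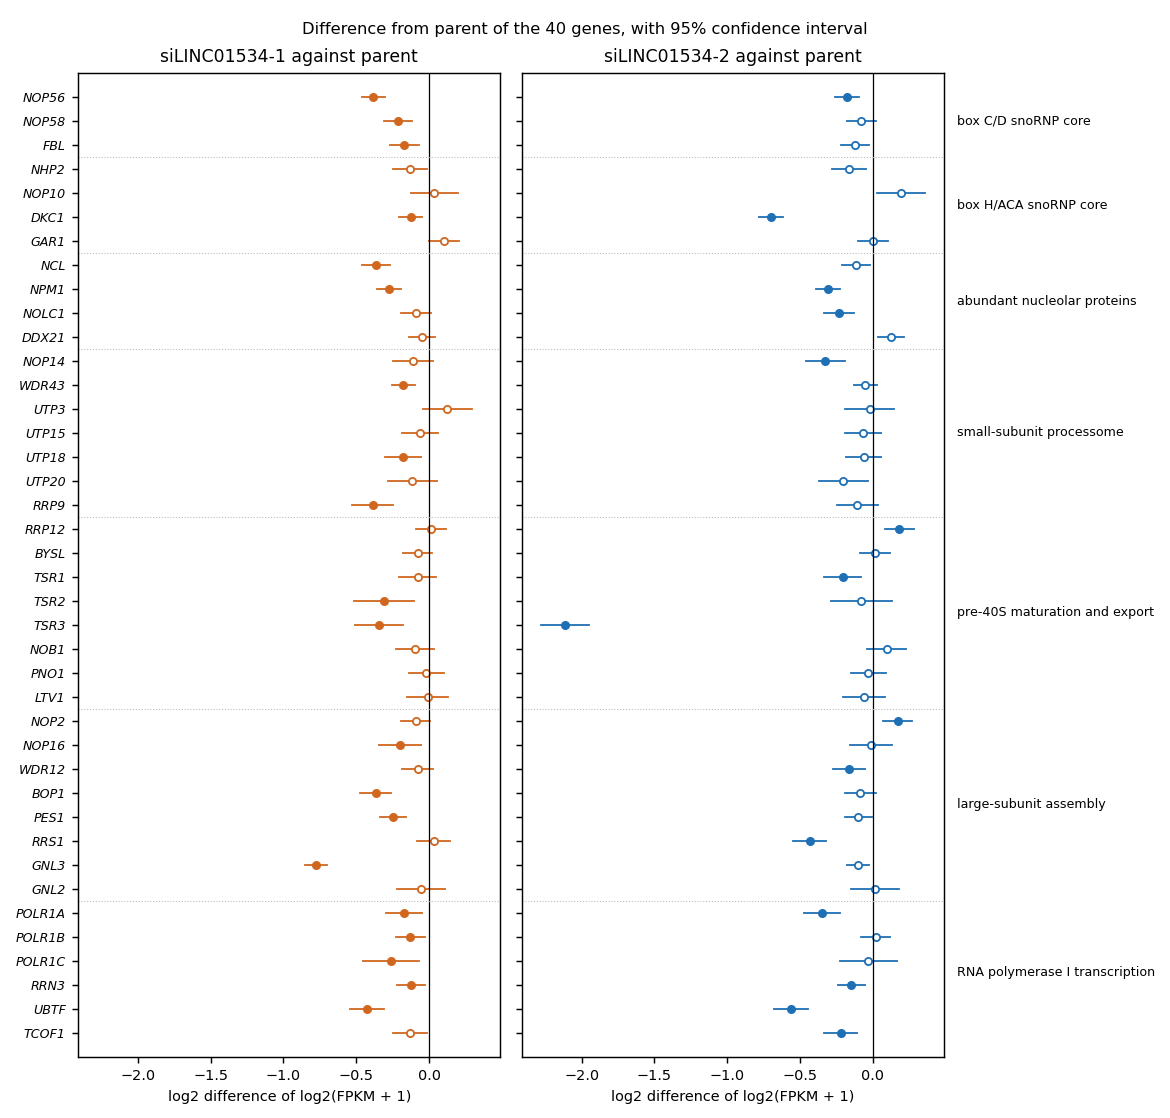
Log2 difference from parent (horizontal axis, on the log2(FPKM + 1) scale) of each of the 40 genes, grouped by role, for siLINC01534-1 (left) and siLINC01534-2 (right); lines are unadjusted 95% confidence intervals from limma and filled points passed the adjusted test. The points crowd just left of 0 in both panels, with GNL3 at -0.78 on the left and TSR3 at -2.11 and DKC1 at -0.70 on the right set apart.

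Of the box C/D snoRNP core, all 3 genes were lower with siLINC01534-1 and 1 with siLINC01534-2, against 24.5% and 11.8% of all genes. NOP56 (chromosome 20 of GRCh37, 2633239 to 2639039, plus strand), which with its paralog NOP58 forms the scaffold of the particle, had 252 and 260 FPKM in parent, 195 and 197 in the siLINC01534-1 libraries, and 228 and 224 in the siLINC01534-2 libraries. The 3 groups did not overlap, with siLINC01534-1 lowest. The log2 difference was -0.38 with siLINC01534-1 (standard error 0.032, adjusted p = 0.00059) and -0.18 with siLINC01534-2 (adjusted p = 0.018). The call with siLINC01534-2 was kept in 7 of 12 fits, and was lost without any 1 of the parent or siLINC01534-2 libraries (-0.20 to -0.15). FBL (chromosome 19, 40325098 to 40337019, minus strand), the methyltransferase of these particles, had 310.4 and 331 FPKM in parent, 284 and 285 in the siLINC01534-1 libraries, and 292 and 296 in the siLINC01534-2 libraries. Each siRNA library lay under both parent libraries. FBL differed by -0.17 with siLINC01534-1 (adjusted p = 0.018), a call lost without the second parent library (-0.12) or either siLINC01534-1 library, and with siLINC01534-2 its difference of -0.12 did not pass (adjusted p = 0.080). NOP58 differed by -0.21 and -0.08, and passed with siLINC01534-1 alone.

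In the box H/ACA core, DKC1 (chromosome X, 153991017 to 154005964, plus strand), the pseudouridine synthase, stood out from its partners. It had 116 and 112 FPKM in parent, 104 and 105 in the siLINC01534-1 libraries, and 69.4 and 70.0 in the siLINC01534-2 libraries. All libraries of a group were separate from those of the others, and those of siLINC01534-2 were far lower. The log2 difference was -0.70 with siLINC01534-2 (standard error 0.033, adjusted p = 0.00043), a fall by 38.8% in mean FPKM, and -0.13 with siLINC01534-1 (adjusted p = 0.025). The smaller difference kept its call in 6 of 12 fits, and lost it without any 1 of the parent or siLINC01534-1 libraries (-0.15 to -0.11). NOP10 (chromosome 15, 34631360 to 34635381, minus strand), the smallest core protein, had 303 and 303 FPKM in parent, 292 and 331 in the siLINC01534-1 libraries, and 356 and 338 in the siLINC01534-2 libraries. Its siLINC01534-1 libraries lay on either side of parent and its siLINC01534-2 libraries above, but neither difference passed, at 0.04 (adjusted p = 0.67) and 0.19 (adjusted p = 0.088, unadjusted 95% interval 0.03 to 0.36). NHP2 (-0.13 and -0.16) and GAR1 (0.10 and 0.0011) did not pass with either siRNA. The box H/ACA proteins also belong to telomerase.

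The 4 abundant nucleolar proteins gave 2 falls with each siRNA (50%, where 24.5% and 11.8% of all genes were lower). NPM1 (chromosome 5, 170814120 to 170838814, plus strand) had 1946 and 1977 FPKM in parent, 1607 and 1631 in the siLINC01534-1 libraries, and 1599 and 1572 in the siLINC01534-2 libraries. Its level was alike in the libraries of both siRNAs, and below parent. The log2 difference was -0.28 (adjusted p = 0.0018) and -0.31 (adjusted p = 0.0041), and the siRNAs differed by 0.03 (unadjusted 95% interval from -0.05 to 0.11, adjusted p = 0.49). The annotation lists 49 processed or other pseudogenes named after NPM1, and reads could be shared with them. NCL had 980 and 979 FPKM in parent, 751 and 767 in the siLINC01534-1 libraries, and 928 and 877 in the siLINC01534-2 libraries. It was lower with siLINC01534-1 (-0.37, adjusted p = 0.0012), and with siLINC01534-2 its difference of -0.12 did not pass (adjusted p = 0.083). NOLC1, a chaperone of snoRNPs, was lower with siLINC01534-2 (-0.23, adjusted p = 0.016, kept in 9 of 12 fits) and differed by -0.09 with siLINC01534-1 (adjusted p = 0.13). The RNA helicase DDX21 did not pass with either siRNA, at -0.05 and 0.13.

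In the small-subunit processome, 3 of 7 genes (42.9%) were lower with siLINC01534-1 and 1 (14.3%) with siLINC01534-2. Of all genes, 24.5% and 11.8% were lower, so the share with siLINC01534-2 was near that of all genes. RRP9 (chromosome 3, 51967445 to 51975920, minus strand), which binds the U3 snoRNA, had 76.5 and 84.8 FPKM in parent, 60.8 and 62.0 in the siLINC01534-1 libraries, and 75.8 and 73.8 in the siLINC01534-2 libraries. The siLINC01534-1 libraries lay well under all others, and the siLINC01534-2 libraries just under parent. Its log2 difference was -0.39 with siLINC01534-1 (standard error 0.056, adjusted p = 0.0035) and -0.11 with siLINC01534-2 (adjusted p = 0.23). WDR43 and UTP18 each differed by -0.18 with siLINC01534-1, and NOP14 by -0.33 with siLINC01534-2 (adjusted p = 0.014). The call was kept in 7 of 12 fits for UTP18 and in 8 of 12 for NOP14. UTP3, UTP15 and UTP20 did not pass with either siRNA.

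Among the 8 genes for late maturation and export of the small subunit, TSR3 changed far more than the others. TSR3 (chromosome 16, 1399241 to 1401879, minus strand) encodes the enzyme that adds an aminocarboxypropyl group to a modified uridine of the small-subunit ribosomal RNA. It had 56.6 and 60.6 FPKM in parent, 47.6 and 44.3 in the siLINC01534-1 libraries, and 13.3 and 12.2 in the siLINC01534-2 libraries. The group means were 58.6 ± 2.79 (SD, n = 2), 45.9 ± 2.31 (SD, n = 2) and 12.8 ± 0.818 (SD, n = 2), and no libraries of different groups overlapped. The mean was 4.59-fold lower than parent with siLINC01534-2, a log2 difference of -2.11 (standard error 0.065, adjusted p = 0.00015), and 1.28-fold lower with siLINC01534-1, a log2 difference of -0.34 (adjusted p = 0.0089). The latter call was lost without the second parent library (-0.30) or the second siLINC01534-1 library (-0.29). The read number behind TSR3 was estimated at between 120 and 610 in a library. GNPTG, which starts 53 bases from TSR3 on the other strand, differed by -0.11 with siLINC01534-2 (adjusted p = 0.30) and by 0.03 with siLINC01534-1 (adjusted p = 0.78). BAIAP3, whose last exon overlaps the end of TSR3 on the other strand, differed by -0.13 with siLINC01534-2 (adjusted p = 0.53) and was lower with siLINC01534-1 (-0.51, adjusted p = 0.029). The strand setting of the counting is not given in the sources used here. Both neighbours were looked up after the value of TSR3 was seen.

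The other genes of this group moved little. TSR2, a carrier of a small-subunit ribosomal protein, was lower with siLINC01534-1 (-0.31, adjusted p = 0.029), and its libraries had 39.3 and 46.8 FPKM in parent and 34.3 and 34.5 with siLINC01534-1. The call was kept in 6 of 12 fits, and the difference was -0.19 without the second parent library and -0.43 without the first. TSR1 was lower with siLINC01534-2 (-0.21, adjusted p = 0.038, kept in 3 of 12 fits). RRP12, an export factor, was higher with siLINC01534-2 (0.18, adjusted p = 0.030, kept in 4 of 12 fits), at 38.5 and 40.3 FPKM against 34.4 and 34.8 in parent. NOB1 (chromosome 16, 69775774 to 69788829, minus strand), the nuclease that makes the final cut at the end of the small-subunit RNA, had 101 and 109.6 FPKM in parent, 95.3 and 102 in the siLINC01534-1 libraries, and 113 and 113 in the siLINC01534-2 libraries. Its differences of -0.10 and 0.09 did not pass. Its partner PNO1 differed by -0.02 and -0.03, and BYSL and LTV1 did not pass either.

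Large-subunit assembly gave 4 falls of 8 genes (50%, against 24.5% of all genes) with siLINC01534-1. With siLINC01534-2 it gave 2 falls (25%, against 11.8%) and 1 rise (12.5%, against 11.1%). GNL3 (chromosome 3, 52715172 to 52728513, plus strand), which encodes the nucleolar GTPase nucleostemin, had the largest difference of the 40 genes with siLINC01534-1. It had 160.4 and 162 FPKM in parent, 93.7 and 93.7 in the siLINC01534-1 libraries, and 151 and 149 in the siLINC01534-2 libraries. The log2 difference was -0.78 with siLINC01534-1 (standard error 0.030, adjusted p = 7.0e-05), a 1.72-fold fall, and -0.10 with siLINC01534-2 (adjusted p = 0.063). BOP1, PES1 and WDR12 form 1 complex. BOP1 had 143 and 145 FPKM in parent, 115 and 108 in the siLINC01534-1 libraries, and 138 and 134 in the siLINC01534-2 libraries, and PES1 had 139 and 142, 119.9 and 116, and 133 and 128. Both were lower with siLINC01534-1 (-0.37, adjusted p = 0.0017, and -0.25, adjusted p = 0.0039). WDR12 was lower with siLINC01534-2 (-0.16, adjusted p = 0.049), a call kept in 2 of 12 fits, and its difference of -0.08 with siLINC01534-1 did not pass (adjusted p = 0.19). The siRNAs did not differ past the threshold for WDR12 (0.08, adjusted p = 0.18), and for all 3 genes both libraries of each siRNA lay below both parent libraries.

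RRS1, which helps to bring the small ribosomal RNA of the large subunit into the precursor, had 52.6 and 54.3 FPKM in parent, 56.6 and 52.9 in the siLINC01534-1 libraries, and 39.5 and 39.2 in the siLINC01534-2 libraries. Its siLINC01534-1 libraries overlapped parent and its siLINC01534-2 libraries lay under all others. The log2 difference was -0.43 with siLINC01534-2 (standard error 0.045, adjusted p = 0.0040) and 0.03 with siLINC01534-1 (adjusted p = 0.59). NOP2, an RNA methyltransferase, was higher with siLINC01534-2, at 105 and 99.96 FPKM against 89.1 and 92.5 in parent (0.17, adjusted p = 0.033, kept in 4 of 12 fits). NOP16 was lower with siLINC01534-1 (-0.20, adjusted p = 0.037, kept in 5 of 12 fits), and the GTPase gene GNL2 did not pass with either siRNA, at -0.05 and 0.02.

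**Figure D3:**
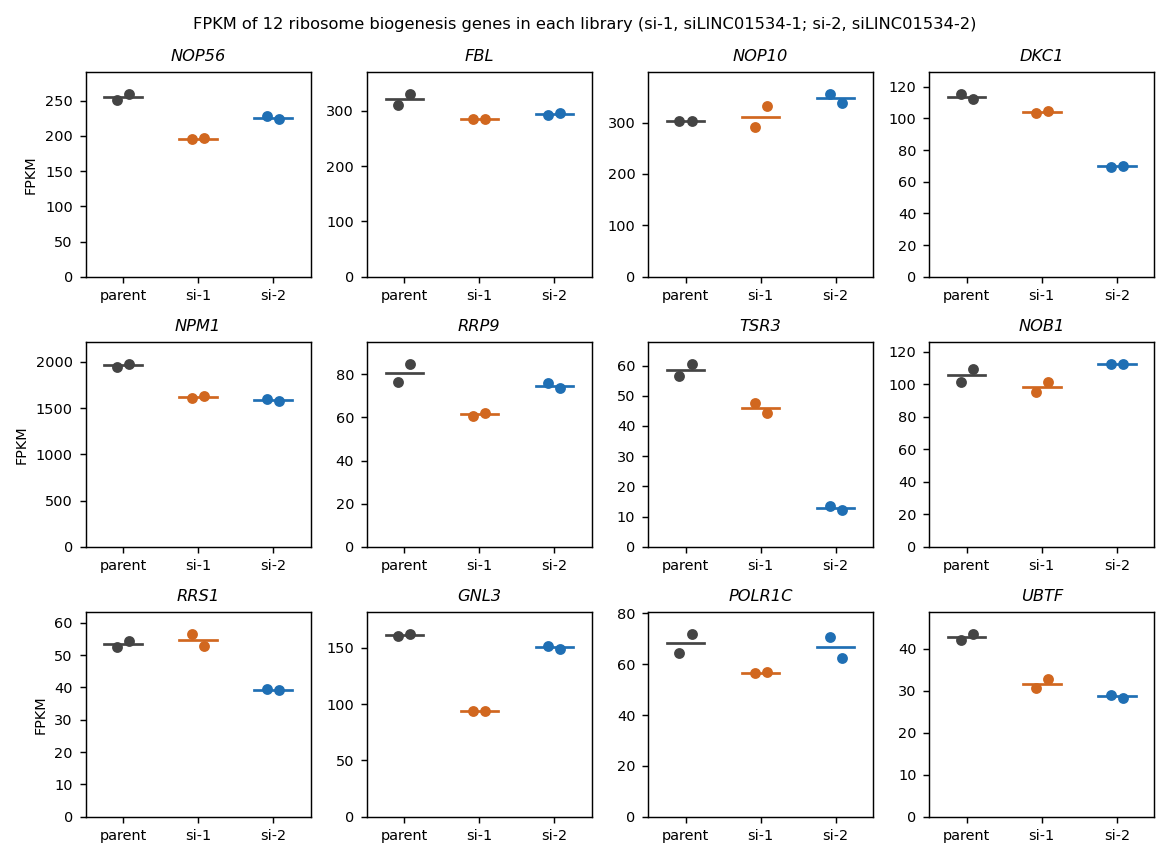
FPKM (vertical axis, from 0) of the 12 genes named by rule in each library (points) with the group mean (bars). GNL3 is low with siLINC01534-1, at 93.7 FPKM in both libraries, TSR3, DKC1 and RRS1 are low with siLINC01534-2, and NPM1 and UBTF are low with both.

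For transcription by RNA polymerase I, 5 of 6 genes (83.3%) were lower with siLINC01534-1 and 4 (66.7%) with siLINC01534-2, against 24.5% and 11.8% of all genes. UBTF (chromosome 17, 42282401 to 42298994, minus strand), whose product UBF opens ribosomal DNA and marks its active copies, had 42.2 and 43.6 FPKM in parent, 30.6 and 32.7 in the siLINC01534-1 libraries, and 29.1 and 28.3 in the siLINC01534-2 libraries. All 4 siLINC01534 libraries lay under both parent libraries. The log2 difference was -0.43 with siLINC01534-1 (standard error 0.048, adjusted p = 0.0015) and -0.56 with siLINC01534-2 (adjusted p = 0.0023), and that between the siRNAs was 0.14 (unadjusted 95% interval from 0.02 to 0.26, adjusted p = 0.069). POLR1A, the largest subunit of the polymerase, was lower with both, by -0.17 (adjusted p = 0.035) and -0.35 (adjusted p = 0.0088), and so was the initiation factor gene RRN3, by -0.12 and -0.15. The POLR1A call was kept in 4 of 12 fits with siLINC01534-1 and in 11 with siLINC01534-2, and both RRN3 calls in 4 of 12. RRN3 has 3 annotated pseudogenes that could share its reads. POLR1C (chromosome 6, 43477440 to 43530156, plus strand), a subunit that RNA polymerase I shares with RNA polymerase III, had 64.4 and 72.0 FPKM in parent, 56.4 and 56.9 in the siLINC01534-1 libraries, and 70.9 and 62.6 in the siLINC01534-2 libraries. It was lower with siLINC01534-1 (-0.26, adjusted p = 0.040), a call kept in 6 of 12 fits. The call was lost without the second parent library (-0.18) or either siLINC01534-1 library, among other fits. The siLINC01534-2 libraries of POLR1C overlapped parent. POLR1B differed by -0.13 with siLINC01534-1 (adjusted p = 0.045, kept in 4 of 12 fits) and 0.02 with siLINC01534-2. TCOF1, which encodes the polymerase cofactor treacle, was lower with siLINC01534-2 (-0.22, adjusted p = 0.024, kept in 8 of 12 fits).

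In the mean of siLINC01534-1 and siLINC01534-2, 20 of the 40 were lower than parent and 0 higher, where 20.1% of all genes were lower and 17.1% higher, and the median log2 difference was -0.15. All 4 siLINC01534 libraries lay below both parent libraries for 23 genes (57.5%, against 19.3% of all genes), and above them for 0 genes (against 19%). When the difference between the siRNAs was counted as error, with the 4 siLINC01534 libraries as 1 group, 2 genes remained past the threshold. They were NPM1 (-0.29, adjusted p = 0.027) and UBTF (-0.49, adjusted p = 0.034). The share of all genes that passed in this fit is not given here, so the count cannot be set beside it.

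The siRNAs differed from each other in 20 of the 40 genes, 14 lower and 6 higher with siLINC01534-1 than with siLINC01534-2, where 22.3% of all genes were lower and 19.5% higher. TSR3 differed most, with a mean 3.60 times as high with siLINC01534-1 (log2 difference 1.77, standard error 0.065, adjusted p = 8.9e-05). GNL3 was lower with siLINC01534-1 (-0.68, adjusted p = 0.00014), and DKC1 (0.57, adjusted p = 0.00027) and RRS1 (0.46, adjusted p = 0.0012) were higher. NOP2 (-0.27), BOP1 (-0.28), RRP9 (-0.28) and NCL (-0.25) were lower with siLINC01534-1 by less. Both libraries of siLINC01534-1 lay below both of siLINC01534-2 for 20 genes (50%, against 36.9% of all genes) and above them for 15 genes (37.5%, against 36.5%), so the difference between the siRNAs did not have 1 direction.

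**Figure D4:**
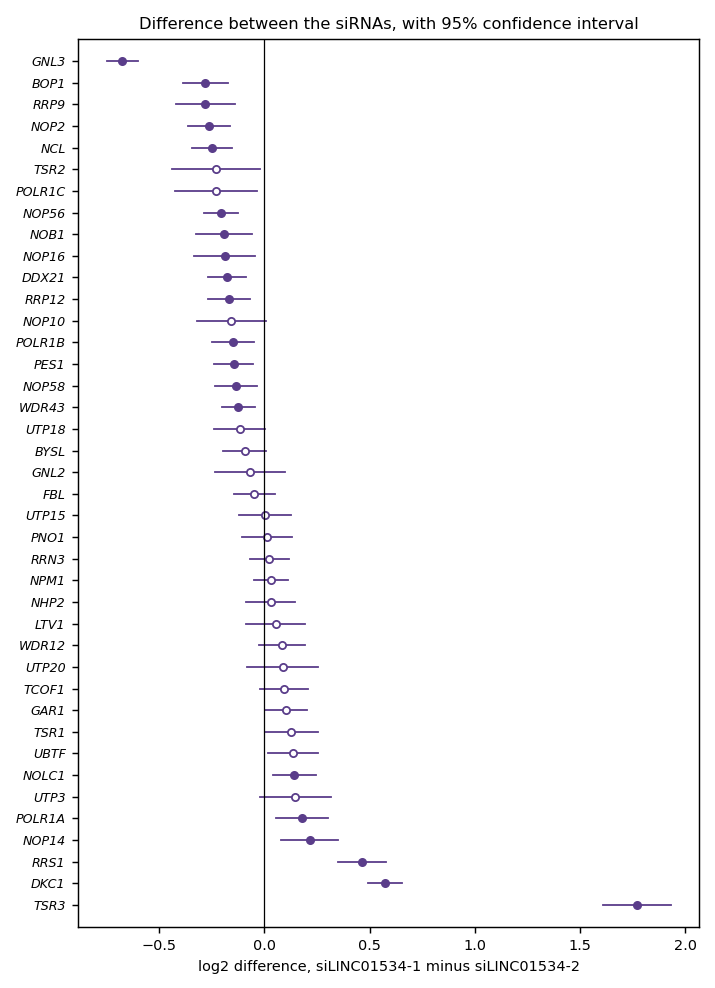
Log2 difference between siLINC01534-1 and siLINC01534-2 (horizontal axis) of the 40 genes in order of its size, with unadjusted 95% confidence intervals from limma (lines) and the genes past the adjusted threshold filled. GNL3 (-0.68) is at the top, and RRS1 (0.46), DKC1 (0.57) and TSR3 (1.77) are at the bottom, apart from the rest.

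The E-box genes and the others among the 34 with a promoter window gave these values. With siLINC01534-1, 8 of the 18 genes with an E-box and 10 of the 16 without were lower, with medians of -0.11 and -0.13, where 24.5% of all genes were lower. With siLINC01534-2, 2 of the 18 (NOP14 and TSR3) and 8 of the 16 were lower, with medians of -0.06 and -0.15, where 11.8% of all genes were lower, and NOP2 of the 18 was higher. MYC had 184 and 192 FPKM in parent, 205 and 208 in the siLINC01534-1 libraries, and 192 and 187 in the siLINC01534-2 libraries. It was higher with siLINC01534-1 (0.14, adjusted p = 0.027), while with siLINC01534-2 the difference was 0.01 (adjusted p = 0.80).

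A further 111 ribosome biogenesis factors outside the 40, also chosen with earlier results of these data known, all passed the filter. With siLINC01534-1, 58 were lower (52.3%, against 24.5% of all genes) and 13 higher (11.7%, against 21.8%), with a median of -0.17. With siLINC01534-2, 30 were lower (27%, against 11.8%) and 6 higher (5.41%, against 11.1%), with a median of -0.11. With any 1 of the 6 libraries left out, 37 to 54 were lower with siLINC01534-1 and 7 to 20 with siLINC01534-2, and 7 was the count without the first parent or the second siLINC01534-2 library. By role, 26 of 46 large-subunit factors and 20 of 36 small-subunit factors were lower with siLINC01534-1, and 9 and 13 of them with siLINC01534-2. Of 17 factors of snoRNP assembly and RNA modification, 7 were lower with each siRNA. Of 12 further factors of RNA polymerase I transcription, MYC included, 5 were lower and 4 higher with siLINC01534-1, and 1 and 1 with siLINC01534-2, where their median was 0.0015.

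The largest falls of this list with siLINC01534-1 exceeded those of the 40 genes. MRTO4, a large-subunit assembly factor, had 82.3 and 84.9 FPKM in parent, 27.9 and 27.5 in the siLINC01534-1 libraries, and 82.4 and 80.6 in the siLINC01534-2 libraries. It was 3.02-fold lower with siLINC01534-1 (log2 difference -1.56, adjusted p = 2.2e-05), and its siLINC01534-2 libraries overlapped parent (-0.04). DHX37, a helicase of the small-subunit processome, had 37.1 and 38.0 FPKM in parent, 13.5 and 12.6 in the siLINC01534-1 libraries, and 32.8 and 28.8 in the siLINC01534-2 libraries (-1.46 and -0.28). With siLINC01534-2 the largest falls were in RRP7A (-0.53) and WDR3 (-0.49), which also fell with siLINC01534-1 (-0.45 and -0.83). GLTSCR2, the older symbol of NOP53, rose most with siLINC01534-1 (0.56) together with EFTUD1, the older symbol of EFL1 (0.47). With siLINC01534-2, GLTSCR2 was also higher (0.38, adjusted p = 0.0075), and EFTUD1 did not pass (0.11). The kinase gene RIOK3 (0.54) and TAF1D (0.39) rose most with siLINC01534-2.

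**Figure D5:**
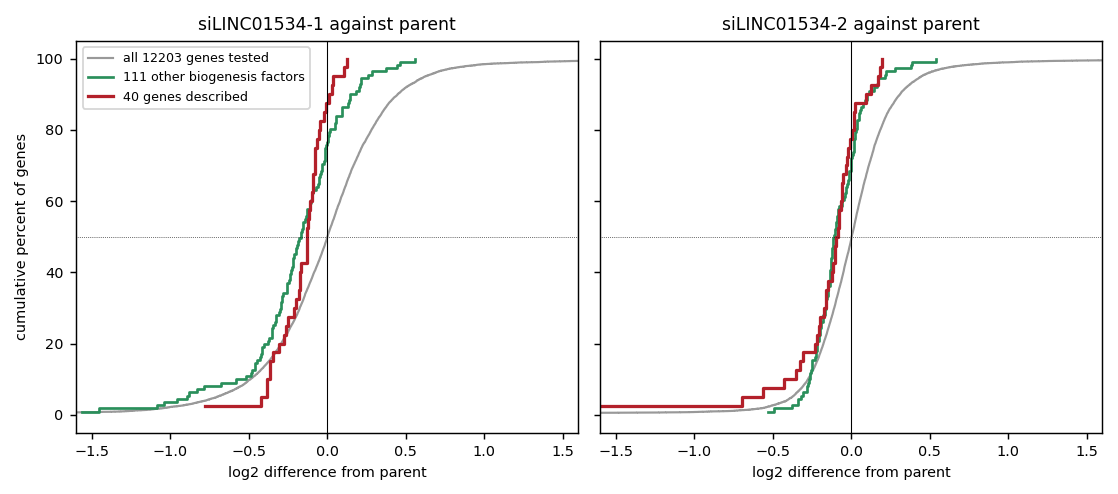
Cumulative percent of genes (vertical axis) by log2 difference from parent (horizontal axis, shown from -1.6 to 1.6) for siLINC01534-1 (left) and siLINC01534-2 (right), for the 40 genes (red), 111 other biogenesis factors (green) and all 12203 genes tested (grey). The red and green curves cross 50% left of 0, at medians of -0.13 and -0.17 for siLINC01534-1 and -0.09 and -0.11 for siLINC01534-2, and the grey curve crosses at 0.

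Of the 40 genes, 8 (20%) hold annotated snoRNA genes on their own strand between their start and end, as 296 of 10607 tested protein-coding genes (2.79%) do. These are NOP56, NOP58, DKC1, NCL, WDR43, TSR1, GNL3 and POLR1C. The levels of the snoRNAs themselves were not analysed here.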

How the data were processed

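Poly(A) RNA of HCT116 cells was sequenced as stranded libraries with 75-base single-end reads. The authors mapped the reads to hg19 with TopHat 2.0.13, Bowtie2 2.2.3 and SAMtools 0.1.19, and deposited FPKM from Cuffnorm 2.2.1, 1 value per gene symbol and library. The annotation and the strand setting of the counting are not given in the sources used here. Groups and replicate numbers came from the library titles. The titles give 2 libraries per group, where the methods speak of 3 cultures, and labels and methods name different extraction kits. Which cultures the 2 libraries of a group came from is not given, so p-values measure only the spread between these libraries, part of which may be technical.

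The deposited FPKM were put on the log2(FPKM + 1) scale. The pseudocount of 1 understates differences of low genes. The 12203 genes with a mean of at least 1 FPKM were tested with limma 3.58.1 in R 4.3.3, fitting a mean for each of the 3 groups and a common spread, with an eBayes trend, two-sided p-values and Benjamini-Hochberg adjustment (threshold 0.05). Standard errors and intervals come from the same fit. On data simulated for siLINC01534-1 against parent over 12203 genes, 169 of 200 genes changed by 1 on the log2 scale were recovered and 14 unchanged genes were called. Of the 40 genes, the 20 called with siLINC01534-1 had a median absolute log2 difference of 0.25, and the simulation does not cover steps of that size. Its noise was drawn from a normal distribution, as the test assumes. It changed 200 genes, where 5654 were called in the data, so it does not show how well the calls hold here. Fold and percent values are ratios of mean FPKM.

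The 40 genes, the 111 further factors, the markers and the motifs were chosen with earlier results of these data known. The genes given in every library by rule were the 4 largest differences past the threshold in each comparison of 2 groups, genes past it in opposite directions, and the gene of highest mean FPKM in each role group. Of the 111 factors, the 2 largest rises and 2 largest falls past the threshold with each siRNA were named. NCL, BOP1, PES1, TSR2, RRP12, NOP2 and MYC were also given by library after their values were seen. Gene positions came from GENCODE on GRCh37, the build hg19 is based on, and promoter sequences from RefSeq on GRCh38.p14. The files carry no read counts. Depth was estimated from steps of low FPKM values and 204 genes with 1 transcript, with 200 bases taken off each length. In the first parent library its quartiles were 9430000 and 10200000 reads. It is approximate, as 41.3% of 3863 low genes had values within 2% of whole multiples. Python 3.11.15, pandas 2.3.3 and numpy 2.4.6 were used.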

Additional observations from a re-analysis of the deposited data

Results flagged for a closer look

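The siLINC01534-1 and siLINC01534-2 libraries differed in 20 of the 40 genes, by the limma test of the difference itself. Of all genes, 22.3% were lower and 19.5% higher with siLINC01534-1 than with siLINC01534-2. The log2 difference, siLINC01534-1 minus siLINC01534-2, was 1.77 for TSR3, 0.57 for DKC1, 0.46 for RRS1, 0.21 for NOP14, 0.18 for POLR1A and 0.14 for NOLC1. It was -0.68 for GNL3, -0.28 for BOP1, -0.28 for RRP9, -0.27 for NOP2, -0.25 for NCL, -0.20 for NOP56 and -0.19 for NOB1. It was -0.19 for NOP16, -0.18 for DDX21, -0.17 for RRP12, -0.15 for PES1, -0.15 for POLR1B, -0.13 for NOP58 and -0.12 for WDR43. For DDX21 and NOB1, which passed in neither comparison with parent, the libraries of siLINC01534-2 were the higher ones.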

How the results depend on the processing

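Each comparison was refitted with a pseudocount of 0.1, without the filter on low values, with a minimum mean of 5 FPKM, with libraries rescaled to a common median, without the trend, with a replicate block and without each library. None of the 40 genes changed direction past the threshold. The shares of all genes that passed in each refit are not given here, so the counts of refits describe only these genes. The call was kept in all of these refits for 10 of 20 genes with siLINC01534-1 (NOP56, NOP58, NCL, NPM1, WDR43, RRP9, BOP1, PES1, GNL3 and UBTF), for 5 of 15 with siLINC01534-2 (DKC1, NPM1, TSR3, RRS1 and UBTF), and for 8 of 20 between the siRNAs (NOP56, DKC1, NCL, TSR3, NOP2, BOP1, RRS1 and GNL3). The rises of RRP12 and NOP2 with siLINC01534-2 were kept in 4 of 12 refits each. Without the trend, 13, 9 and 12 genes passed in these comparisons, in place of 20, 15 and 20; the cause was not tested. With the 4 siLINC01534 libraries as 1 group, 2 genes passed for the mean of both siRNAs.

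With fewer libraries, the counts ranged from 11 to 17 with siLINC01534-1, from 5 to 11 with siLINC01534-2, from 9 to 18 between the siRNAs and from 9 to 17 for the mean of both. A lone library was then taken to vary like the other groups. With siLINC01534-1 the count was 11 without the second parent library or either siLINC01534-1 library. With siLINC01534-2 it was 6 without either parent library, 8 without the first siLINC01534-2 library and 5 without the second. Between the siRNAs it was 10 without either siLINC01534-1 library, and 9 and 13 without the first and second siLINC01534-2 library. For the mean of both it was 13 and 9 without the first and second parent library and 12 without the second siLINC01534-2 library. The medians ranged from -0.15 to -0.12, from -0.12 to -0.08, from -0.08 to -0.04 and from -0.15 to -0.11, the last value without the second parent library, in which 32 of the 40 genes were higher than in the first.

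Libraries are numbered in each group, but across genes the deviations of libraries with the same number correlated at 0.11, 0.03 and -0.05 between pairs of groups. No pairing showed in these values. Noisy genes can dominate a correlation over all genes, so it cannot exclude a pairing by number. With the number as a replicate block, 14, 10, 13 and 18 genes passed in the 4 comparisons, in the order above. The estimated depth leaves at least 120 reads for each of the 40 genes in each library.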
